A study of Mus musculus with 24 samples.

Results

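The double-strand break repair and Fanconi genes are 58 genes chosen by name: damage checkpoint kinases and their clamp, the chromatin response at breaks, homologous recombination, end joining and the Fanconi pathway. No measured value was part of the rule of choice, but the genes were chosen with earlier results of these data known. A probe under the current or an older symbol was found for 56 of the 58, and Xrcc2 and Xrcc4 are not named for any probe in the annotation used here. The 56 genes were read from 66 probes, they are 56 of the 17742 genes tested, and they were placed in 9 groups by role.

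A break through both DNA strands activates the kinases ATM and ATR, whose signal spreads along the chromatin through phosphorylated H2AX, MDC1, RNF8, RNF168 and 53BP1. The ends are then either resected and copied from the sister chromatid with the help of BRCA1 and BRCA2, which needs a replicated genome, or bound by KU and DNA-PK and ligated directly. The Fanconi proteins open crosslinks between strands and pass the resulting break to recombination. Most cardiomyocytes of the adult mouse have left the cell cycle, and recombination between sister chromatids is a pathway of dividing cells.

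RNA came from the free wall of the left ventricle, outside scarred areas, of 6-week-old mice of the strain C57BL6/J;129S1/SvImJ. The 4 control mice had the genotype aMHC-cre Tg/+; Hira flox/+ and the 4 Hira conditional knockout (CKO) mice had aMHC-cre Tg/+; Hira flox/-, so both groups carried the Cre transgene. HIRA is a chaperone that places histone H3.3 into chromatin outside replication. The αMyHC promoter drives Cre in cardiomyocytes, and the other cells of the wall keep their floxed allele. The allele beside it is null in every cell of a Hira CKO mouse and wild type in a control mouse. By genotype the groups thus differed in Hira gene dose outside cardiomyocytes too. In bulk tissue of this kind, fewer cells of a type and less RNA per cell cannot be told apart. Each RNA was hybridised to 3 single-colour arrays, 24 in all, which are technical repeats, so n is the 4 mice of a group.

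Values are linear probe intensities that the authors had scaled to a median of 513.2 on every array, so a change shared by all genes alike would not be visible. The values of a mouse are given below as the mean of its 3 arrays, taken on the log2 scale. Groups were compared with limma, changes are given on the log2 scale with their standard error (SE), and a gene was called lower or higher in Hira CKO mice at a Benjamini-Hochberg adjusted p under 0.05 over all 17742 genes. The brightest probe stands for a gene, and intensities of different genes are not set against each other, because probes differ in brightness. Hira itself had a log2 fold change of −0.20 (SE 0.13, adjusted p = 0.282), and since no source used here places its probe inside or outside the deleted part, this value does not check the genotype. Array 3 of CKO_6672 held 2429 values below 0 and array 1 of control_6299 held 982, against at most 202 on any other array. The 7 cardiomyocyte markers measured all lay at or above the 99.6th percentile of intensity.

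Some of the promoters carry the letters bound by E2F, the family of factors that switches on S phase genes, and they are shown here because the genes that carry them are followed as a set below. The letters searched were TTTCGCGC, TTTGGCGC and TTTCCCGC, on both strands, in RefSeq promoters of the GRCm38.p6 assembly that run from 250 bases before to 50 bases after the start of a gene. A promoter entry was found for 44 of the 56 genes, and 9 of them (20.5%) held the letters, against 2.12% of all 27025 genes in the promoter table, 2.76% of its 17492 coding genes and 3.12% of the 13980 genes tested here that have a promoter there. Each line is a stretch of 30 bases on the strand of the gene, with the E2F letters, read on one strand or the other, in capitals.
Chek2 (chr5:110839820-110839849, plus strand): cgggattagccGCGGGAAAccaagacgtcg
Topbp1 (chr9:103305187-103305216, plus strand): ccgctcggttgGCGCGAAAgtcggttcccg
Mdc1 (chr17:35841471-35841500, plus strand): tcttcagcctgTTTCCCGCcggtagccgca
Brca2 (chr5:150522442-150522471, plus strand): tttaggccacaGCGGGAAAcagacacacac
Bard1 (chr1:71103163-71103192, minus strand): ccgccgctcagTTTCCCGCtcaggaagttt
Rad51c, first promoter (chr11:87404477-87404506, minus strand): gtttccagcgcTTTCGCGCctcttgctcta
Rad51c, second promoter (chr11:87404941-87404970, minus strand): cccccgcgaggGCGGGAAAagcaaggggtc
Dmc1 (chr15:79605090-79605119, minus strand): cgcggccctcaTTTGGCGCcaagcccggag
Xrcc6 (chr15:82016312-82016341, plus strand): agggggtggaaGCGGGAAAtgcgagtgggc
Fancg (chr4:43010335-43010364, minus strand): tttcttttcagTTTCCCGCggaaccgtctc
A match is a run of letters and not a measured binding site. Most of these copies lie upstream of the start, from 209 bases before it in Bard1 to 5 bases before it in the second promoter of Rad51c. In Dmc1 they begin at base 2 after the start, and in the first promoter of Rad51c at base 12 after it.

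Of the 56 genes, 4 were lower in Hira CKO hearts and 2 were higher. The lower genes were Trp53bp1, Brca2, Nbn and Nhej1, one each from the chromatin response, the BRCA complexes, end resection and end joining. The higher genes were Recql4, a RecQ helicase, and Fancc, a subunit of the Fanconi core complex. The 4 lower genes are 7.14% of those measured, where 9.65% of all genes tested were called lower, and the 2 higher genes are 3.57%, where 4.94% of all genes were called higher. Both shares were thus near or under the background of the series.

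The other 50 genes were not called. The log2 fold change was negative in 38 of the 56 (67.9%) and in 67.8% of all genes, and its median was −0.07 over the 56 and −0.14 over all genes. Before adjustment 17 of the 56 genes had a p under 0.05 in limma, 14 of them lower and 3 higher. Of all 17742 genes tested, 6487 had such a p, 4759 of them lower and 1728 higher. The 4 values of one group all lay outside those of the other in 14 genes (25%), against 23.4% of all genes tested. In 10 of these 14 the Hira CKO mice were the lower group, as they were in 2766 of the 4147 such genes among all genes tested. No change reached 2-fold: 0 of the 56 genes passed the methods' thresholds, a change of 1 or more on the log2 scale in either direction with an unadjusted p under 0.05, against 4.89% of all genes. Quantile normalization, which gives every array the same distribution of values, moved the median of all genes from −0.14 to −0.02. It left 2 genes lower, Trp53bp1 and Nhej1, where 5.48% of all genes were lower, and the same 2 higher, where 7.05% of all genes were higher.

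**Figure D1:**
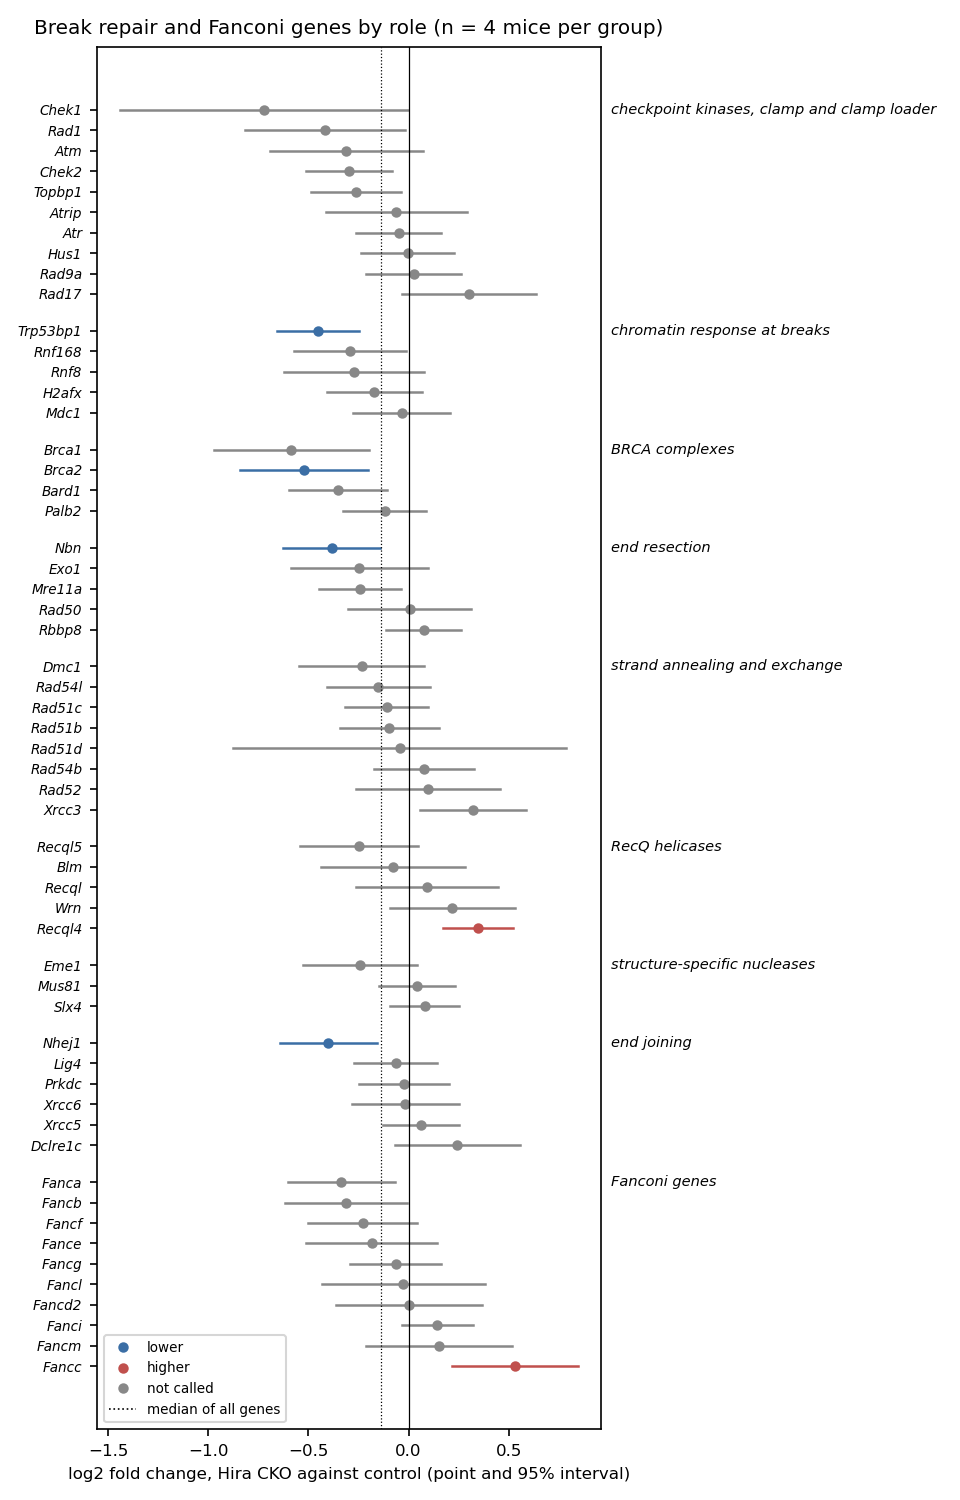
Log2 fold change of each of the 56 genes, Hira CKO against control (point), with its 95% interval from limma (line), arranged by role; n = 4 mice per group. Blue points are called lower, red points higher and grey points not called, and the dotted line is the median of all 17742 genes at −0.14. Only 6 of the 56 points are coloured, and all 4 BRCA complex genes and all 5 chromatin response genes lie left of 0.

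The damage checkpoint group holds the kinases, their clamp and its loader. Of its 10 genes 0 were called, 8 had a negative log2 fold change and 2 a positive one (median −0.16), and the median after quantile normalization was −0.03. Chek2, the effector kinase below ATM, came nearest to the threshold. Its intensity was 742.6, 783.2, 675.5 and 677.1 in mice control_6706, control_6299, control_6675 and control_6497 and 593.9, 578.7, 639.0 and 532.8 in CKO_6300, CKO_6499, CKO_6672 and CKO_6707, the order of mice used throughout. Every Hira CKO mouse lay below every control mouse, with a log2 fold change of −0.30 (SE 0.09, adjusted p = 0.0636).

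TOPBP1 activates ATR at the clamp. Topbp1 intensity was 3999.6, 4020.7, 4214.6 and 4014.5 in control and 3361.0, 3130.2, 3979.9 and 3139.3 in Hira CKO mice. The groups did not overlap, but CKO_6672 lay just under the lowest control mouse, and the log2 fold change of −0.26 (SE 0.10, adjusted p = 0.0958) was not called. Chek1, the effector kinase below ATR, had the log2 fold change farthest from 0 of all 56 genes and was among the dimmest. Its intensity was 46.3, 42.4, 43.0 and 59.9 in control and 47.6, 29.8, 14.6 and 32.8 in Hira CKO mice. CKO_6300 lay among the controls, and the value of CKO_6672 included an intensity of 1.1 on the array with most values below 0. The log2 fold change was −0.72 (SE 0.32, adjusted p = 0.135), and it became 0.11 after quantile normalization.

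RAD9A, HUS1 and RAD1 form the ring-shaped clamp that RAD17 loads beside a break, and the 4 genes had values of both signs. Rad1 had a log2 fold change of −0.42 (SE 0.18, adjusted p = 0.124), with CKO_6672, at 863.4, inside the control range of 736.9 to 1128.4. Rad17 had 0.30 (SE 0.15, adjusted p = 0.171). Hus1 and Rad9a lay at −0.004 (95% interval −0.24 to 0.23) and 0.03 (−0.21 to 0.26). Atm and Atr, the apical kinases, had −0.31 (−0.69 to 0.07) and −0.05 (−0.26 to 0.16), and Atrip, the partner of ATR, had −0.06 (−0.41 to 0.29).

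Among the 5 genes of the chromatin response, Trp53bp1 was lower and the other 4 were not called, and all 5 log2 fold changes were negative (median −0.27, and −0.28 after quantile normalization). Trp53bp1 encodes 53BP1, which binds modified nucleosomes beside a break and holds back resection. Its intensity was 16917.0, 17574.7, 16287.6 and 17107.7 in control mice and 11841.4, 12646.1, 11351.8 and 13933.1 in Hira CKO mice. The highest Hira CKO mouse lay well below the lowest control mouse. The fold change was 0.731, a log2 fold change of −0.45 (SE 0.09, 95% interval −0.66 to −0.25, adjusted p = 0.0165). This was the smallest adjusted p of the 56 genes.

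RNF8 and RNF168 are the ubiquitin ligases that prepare the nucleosome for 53BP1. Rnf168 intensity was 2816.0, 2362.3, 2761.8 and 2436.4 in control and 1861.9, 1878.0, 2444.6 and 2329.6 in Hira CKO mice. CKO_6300 and CKO_6499 lay below the controls, CKO_6672 inside their range and CKO_6707 just under it, with a log2 fold change of −0.29 (SE 0.12, adjusted p = 0.122). Rnf8 had −0.27 (adjusted p = 0.224), H2afx, the histone variant that ATM phosphorylates, −0.17 (adjusted p = 0.258), and Mdc1, its reader, −0.03 (adjusted p = 0.838).

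The BRCA complexes act on resected DNA at the start of recombination. Brca2 was lower, and all 4 genes of the group had negative log2 fold changes (median −0.44, and −0.22 after quantile normalization, where none of the 4 was called). BRCA2 acts on the single-stranded DNA that resection leaves. Brca2 intensity was 374.8, 383.4, 305.0 and 274.8 in control and 269.7, 200.1, 220.8 and 237.9 in Hira CKO mice. There was no overlap of the groups, but control_6497 and CKO_6300 lay close together. The fold change was 0.697, a log2 fold change of −0.52 (SE 0.14, 95% interval −0.84 to −0.20, adjusted p = 0.0421, and 0.0515 after quantile normalization).

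BRCA1 and BARD1 form the ubiquitin ligase that favours resection. Bard1 intensity was 475.7, 444.6, 441.9 and 420.2 in control and 340.3, 295.0, 370.6 and 395.7 in Hira CKO mice. Every Hira CKO mouse was below every control mouse, with a log2 fold change of −0.35 (SE 0.11, adjusted p = 0.0571), just outside the threshold. Brca1 was dim, at 56.1, 55.5, 40.1 and 68.8 in control and 43.2, 36.7, 33.9 and 31.6 in Hira CKO mice. Of the Hira CKO mice CKO_6300 lay above the lowest control mouse, and the log2 fold change of −0.58 (SE 0.17, adjusted p = 0.0513) was not called. It was −0.06 after quantile normalization and 0.03 after cyclic loess normalization, so its direction depended on the scaling. Palb2, which joins BRCA1 to BRCA2, had −0.12 (95% interval −0.33 to 0.09, adjusted p = 0.367).

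**Figure D2:**
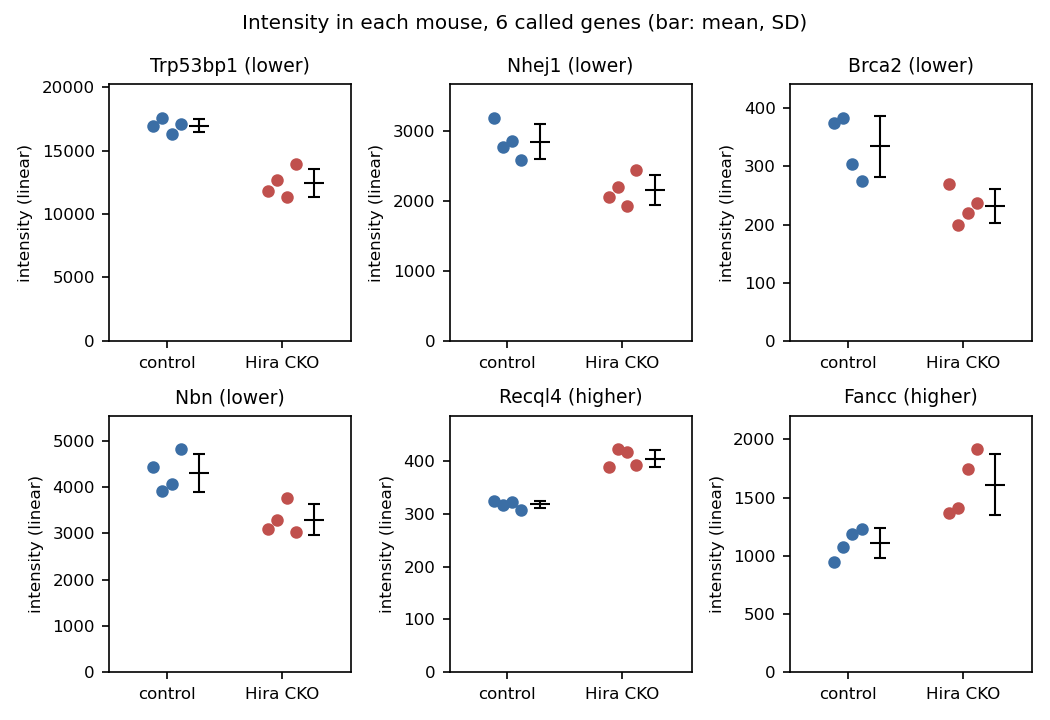
Intensity on a linear scale from 0 for each control (blue) and Hira CKO (red) mouse in the 6 called genes, each point 1 mouse and the mean of its 3 arrays; the black bars are the group mean and SD over 4 mice. The groups do not overlap in any of the 6 panels, and the gap is widest against the spread in Trp53bp1 and Recql4 and narrowest in Brca2.

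End resection starts with the MRE11, RAD50 and NBN complex and is extended by EXO1. Of the 5 genes Nbn was lower and 4 were not called (median log2 fold change −0.24, and −0.05 after quantile normalization). NBN, the regulatory subunit, carries ATM to the break. Nbn intensity was 4436.1, 3911.1, 4058.2 and 4814.4 in control and 3104.2, 3295.0, 3764.8 and 3038.0 in Hira CKO mice. CKO_6672 was the nearest to the controls, and the groups did not overlap. The fold change was 0.766, a log2 fold change of −0.38 (SE 0.11, adjusted p = 0.0456, and 0.0593 after quantile normalization).

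The other subunits of the same complex were not called. Mre11a, the nuclease, had intensities of 1044.1, 1120.0, 1096.6 and 1078.6 in control and 905.0, 817.5, 1008.4 and 945.6 in Hira CKO mice. The groups did not overlap, but the log2 fold change of −0.24 (SE 0.09, adjusted p = 0.0928) was not called. Rad50, the coiled-coil ATPase, lay at 0.01 (95% interval −0.30 to 0.31). Rbbp8, whose product CtIP activates the MRE11 nuclease, had 0.07 (−0.11 to 0.26), and Exo1 had −0.25 (−0.59 to 0.10).

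The strand annealing and exchange group holds Rad51b, Rad51c, Rad51d, Xrcc3, Rad52, Rad54l, Rad54b and Dmc1, whose products act once the ends are resected. Of the 8 genes measured 0 were called (median log2 fold change −0.07, range −0.23 to 0.32). Xrcc3 intensity was 570.9, 488.0, 496.6 and 566.7 in control and 727.3, 752.0, 610.9 and 573.9 in Hira CKO mice. The Hira CKO mice were all higher, CKO_6707 by a few units over the highest control, and the log2 fold change of 0.32 (SE 0.12, adjusted p = 0.0875) was not called. Dmc1, the meiotic recombinase, had −0.23 (SE 0.14, adjusted p = 0.24). Rad51d had the widest 95% interval of this group, from −0.88 to 0.79, with single control mice between 78.1 and 201.6.

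The RecQ helicases unwind recombination intermediates and damaged forks. Of the 5 genes Recql4 was higher and 4 were not called (median log2 fold change 0.09). RECQL4 also takes part in the start of replication. Recql4 intensity was 323.5, 317.1, 321.2 and 307.3 in control and 388.3, 421.1, 415.6 and 390.8 in Hira CKO mice. The control mice lay close together and every Hira CKO mouse was above them. The fold change was 1.273, a log2 fold change of 0.35 (SE 0.08, 95% interval 0.17 to 0.52, adjusted p = 0.0226, and 0.0133 after quantile normalization). Recql5 had −0.25 (adjusted p = 0.195), and Blm, Wrn and Recql had −0.08, 0.22 and 0.09, each with an adjusted p of at least 0.27.

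The 3 structure-specific nuclease genes, whose products cut joined DNA molecules apart, were not called. Mus81 had a log2 fold change of 0.04 (95% interval −0.15 to 0.23), Eme1, its partner, −0.24 (−0.53 to 0.04), and Slx4, the scaffold that holds MUS81 and other nucleases, 0.08 (−0.09 to 0.25).

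End joining was read from 6 of its 7 genes, of which Nhej1 was lower and 5 were not called (median log2 fold change −0.02). NHEJ1, also called XLF, bridges the DNA ends together with XRCC4 while ligase IV seals them. Nhej1 intensity was 3185.9, 2766.3, 2853.0 and 2583.1 in control and 2061.3, 2195.6, 1933.2 and 2443.2 in Hira CKO mice. Again there was no overlap, with CKO_6707 nearest to the controls. The fold change was 0.757, a log2 fold change of −0.40 (SE 0.11, adjusted p = 0.0401, and 0.0294 after quantile normalization).

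The rest of the end joining core lay close to 0. Xrcc5 and Xrcc6, which encode the KU subunits that bind the free end, had 0.06 (95% interval −0.13 to 0.25) and −0.02 (−0.28 to 0.25). Prkdc, the catalytic subunit of DNA-PK, had −0.02 (−0.25 to 0.20) and Lig4, the ligase, −0.07 (−0.27 to 0.14). Dclre1c, which encodes the nuclease Artemis, had 0.24 (SE 0.14, adjusted p = 0.227).

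Of the 10 Fanconi genes, which include core complex subunits and the FANCD2 and FANCI pair that the complex ubiquitinates, Fancc was higher and 9 were not called (median log2 fold change −0.05). Fancc intensity was 944.2, 1077.9, 1189.2 and 1228.0 in control and 1370.6, 1414.3, 1744.5 and 1914.3 in Hira CKO mice. All 4 Hira CKO mice were above the controls. The fold change was 1.445, a log2 fold change of 0.53 (SE 0.14, 95% interval 0.22 to 0.85, adjusted p = 0.0387, and 0.0184 after quantile normalization). A second probe of Fancc went the other way, as described below.

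Fanca, a core complex subunit, had intensities of 245.2, 202.9, 220.5 and 200.4 in control and 193.3, 186.1, 165.1 and 145.8 in Hira CKO mice. The groups did not overlap, but the log2 fold change of −0.34 (SE 0.12, adjusted p = 0.0803) was not called. Fancb, also of the core complex, had 970.8, 938.0, 784.5 and 790.5 in control and 553.5, 752.7, 747.0 and 764.0 in Hira CKO mice. CKO_6300 was far below the rest, and the log2 fold change came to −0.31 (SE 0.13, adjusted p = 0.13). Fanci was higher in every Hira CKO mouse, between 10658.3 and 12035.9 against 10029.5 to 10507.0 in control, with a log2 fold change of 0.14 (SE 0.08, adjusted p = 0.213). Fancd2, its partner, lay at 0.001 (95% interval −0.36 to 0.37) and at 0.49 after quantile normalization (adjusted p = 0.0603). Its probe is among the dimmest 25%.

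More than 1 probe was available for 9 of the 56 genes, and the plot of the probes of these genes sets them side by side. The probes of Fancc moved in opposite directions and each passed the threshold when all probes were tested. Its brightest probe stood at 0.53 on the log2 scale (adjusted p over probes 0.0441). Its second probe had −0.52 (adjusted p 0.0444), at 317.5 to 468.5 in control and 248.2 to 311.4 in Hira CKO mice, again with no overlap. The call of Fancc was lost when its probes were averaged, and no source used here says which transcripts each probe reads. Wrn, Dclre1c and Rad52 also had probes of opposite sign, without a call. All 3 probes of Fancb were negative (−0.31, −0.22 and −0.59, the last with an adjusted p of 0.0506), as were both probes of Atm, Exo1, Dmc1 and Blm.

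**Figure D3:**
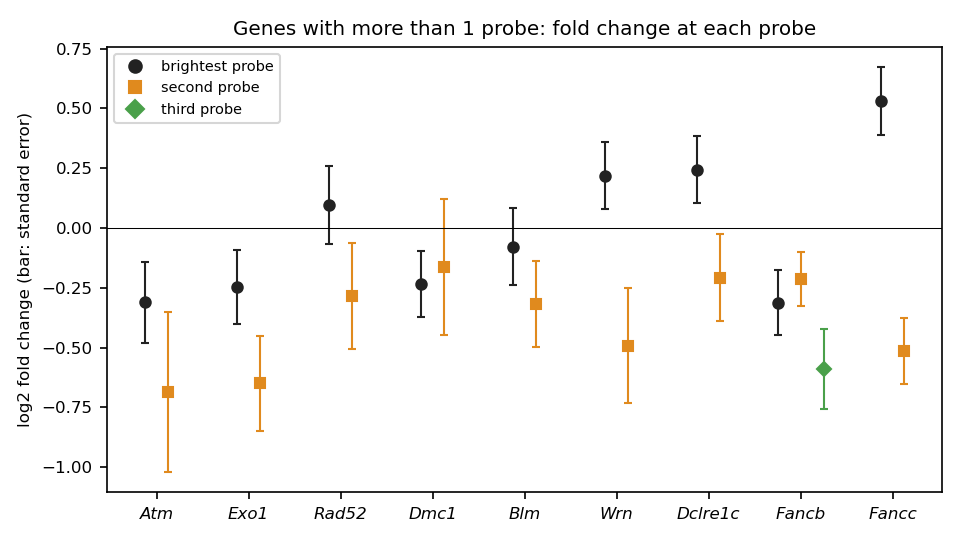
Log2 fold change, Hira CKO against control, at each probe of the 9 genes with more than 1 probe (points, with the standard error as bars; n = 4 mice per group), ordered by brightness within a gene. Fancc has probes at 0.53 and −0.52, and Fancb, Atm, Exo1, Dmc1 and Blm have every probe below 0.

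The fold changes were read against intensity, because dim probes in this series were as a body lower in the Hira CKO group. CKO_6300 did not share this. The 25th percentile of probe intensity was 105.2 in CKO_6300 and 99.5 to 116.3 in control mice. It was 80.5 to 88.0 in the other Hira CKO mice. In the dimmest 25% of genes, with an intensity under 158.3, the median log2 fold change of all genes was −0.46, 16.5% were called lower and 0.992% higher, and quantile normalization brought that median to −0.01. Of the 56 genes 6 lie among these, Chek1, Brca1, Exo1, Rad51d, Eme1 and Fancd2, with a median of −0.25 before and 0.03 after quantile normalization and 0 calls. The median of these 6 was thus nearer to 0 than that of all dim genes. All 6 called genes were brighter. The median of all genes was −0.04, −0.05 and −0.09 in the next 3 bands of 25%, taken in order of intensity.

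**Figure D4:**
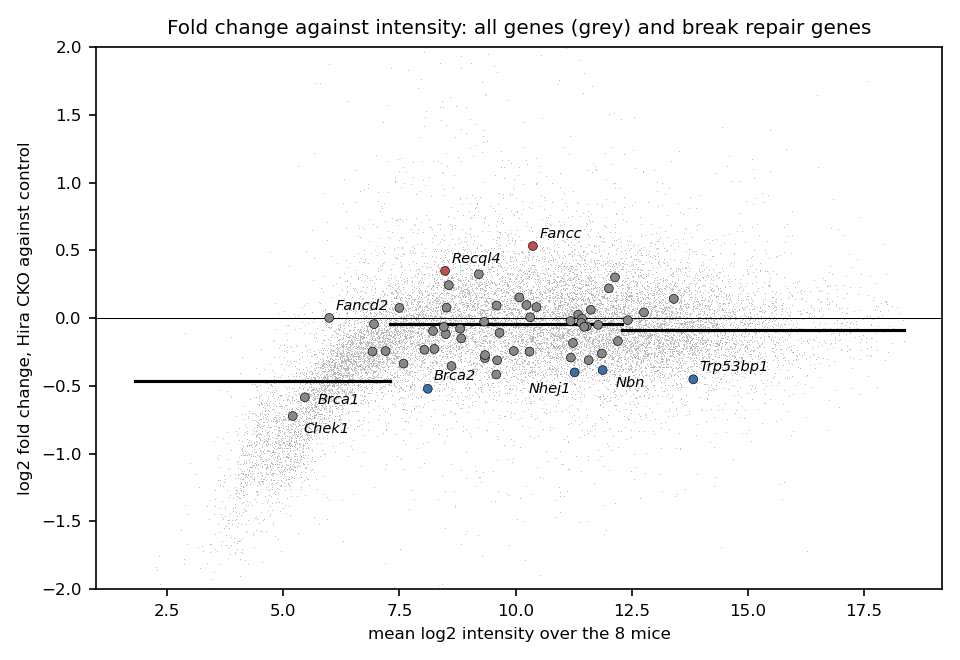
Log2 fold change, Hira CKO against control, against mean log2 intensity over the 8 mice for all 17742 genes (grey dots; 78 lie outside the axis) and the 56 break repair and Fanconi genes (circles, blue lower, red higher, grey not called). Black bars are the medians of all genes in bands of 25% by intensity. Chek1 and Brca1 lie in the dimmest band, where all genes have a median of −0.46, and the called genes lie in the brighter ones.

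The Hira CKO mice were not alike. Taken as the median over the 56 genes of the difference from the control mean, on the log2 scale, they stood at −0.02 in CKO_6300, −0.22 in CKO_6499, −0.08 in CKO_6672 and −0.04 in CKO_6707, and the control mice lay between −0.04 and 0.05. The same median over all genes was −0.06, −0.16, −0.15 and −0.11 in the 4 Hira CKO mice. CKO_6499 was the lowest on both measures. The median standard deviation between mice of a group was 0.162 over the 56 genes and that between arrays of a mouse 0.153, so many of the shifts of 0.1 to 0.2 described above lie within the spread between mice.

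Of the 6 calls, that of Trp53bp1 was held by each of the 8 fits that left out 1 mouse (adjusted p 0.0174 to 0.0485), and the plot of adjusted p shows the others to be closer to the threshold. Recql4 held its call in the absence of control_6706, CKO_6300 or CKO_6707 and lost it without any of the other 5 mice (adjusted p up to 0.0654). Brca2 held it only without control_6497 or CKO_6300 (up to 0.0974 without the others), and Nhej1 only without CKO_6300 or CKO_6707 (up to 0.0995). Nbn held it only without CKO_6672 (up to 0.0986) and Fancc only without CKO_6300 (up to 0.0868). The count of lower genes ran from 1, without control_6706, control_6299 or CKO_6499, to 7 without CKO_6300. Without the 2 arrays that held most values below 0, Nbn, Trp53bp1, Fancc and Recql4 were called.

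**Figure D5:**
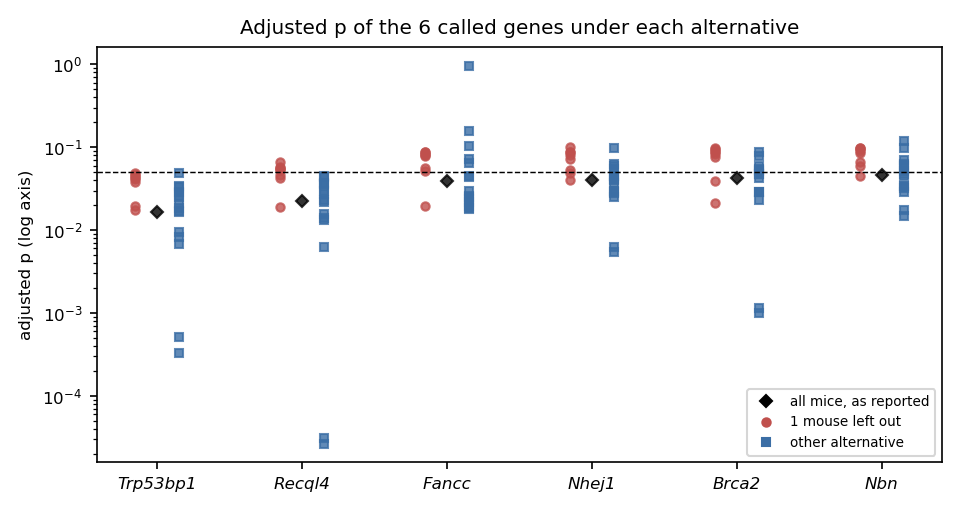
Adjusted p from limma on a log axis for the 6 called genes as reported (black), with each mouse left out in turn (red) and under the other alternatives (blue), with the threshold of 0.05 as a dashed line. All points of Trp53bp1 lie below the line, while each of the other 5 genes has red points above it.

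All 9 genes with E2F letters in their promoters had a negative log2 fold change, between −0.52 for Brca2 and −0.02 for Xrcc6 (median −0.23), and 1 of them, Brca2, was called. Of the 436 genes tested that carry these letters, 71.8% were negative with a median of −0.13, and of all 13980 tested genes with a promoter entry 67.8% were negative with a median of −0.14. Called lower were 11.1% of the 9 genes, 9.86% of the 436 and 9.79% of the 13980. Among the 35 break repair and Fanconi genes whose promoters lack the letters, 24 (68.6%) were negative. After quantile normalization 8 of the 9 were negative, against 60.8% of the 436 genes, 52.9% of the 13980 and 62.9% of the 35. The counts describe a small set and were not tested. Of the other letters searched on both strands, ETS (CCGGAAGT) was held by 6 of the 44 promoters (13.6%) and NRF1 (GCATGCGC) by 5 (11.4%). The CCAAT box was held by 24 (54.5%) and the cell cycle element CHR (TTTGAA) by 5 (11.4%). In this order the shares were 4.31%, 3.05%, 41.1% and 20.2% of all genes in the promoter table. Among the 13980 tested genes they were 6.3%, 4.46%, 41.7% and 16.4%.

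The other genes of the same pathways were taken from a list of 91, of which 83 were measured. Of these 8 (9.64%) were lower and 1 (1.2%) was higher, again near the 9.65% of all genes called lower, with a median log2 fold change of −0.15 (−0.11 after quantile normalization, with 6 lower and 4 higher). In recombination 5 of 30 were lower, in the break response and checkpoint 2 of 25 were lower and 1 higher, in end joining 1 of 16 was lower, and in the Fanconi group 0 of 12 were called.

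Polq, the polymerase of theta-mediated end joining, had the largest fall among the called genes of these lists. Its intensity was 588.5, 669.6, 797.3 and 716.3 in control and 359.8, 527.4, 364.7 and 304.4 in Hira CKO mice. All Hira CKO mice were below the controls, with a log2 fold change of −0.85 (SE 0.17, adjusted p = 0.0169). In recombination the change on the log2 scale was −0.54 for Swsap1, which takes part in recombination (adjusted p = 0.0218), −0.45 for Rtel1, a helicase that takes D-loops apart (adjusted p = 0.0406), and −0.40 for Rad21, a cohesin subunit (adjusted p = 0.0275). Rpa2, a subunit of the protein that coats single-stranded DNA, was lower at −0.51 (adjusted p = 0.0458).

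Among partners of 53BP1 and BRCA1, Paxip1, whose product PTIP binds 53BP1, had intensities of 197.4, 209.5, 195.1 and 187.4 in control and 146.4, 121.7, 148.6 and 149.2 in Hira CKO mice. The Hira CKO mice were all below the controls, with a log2 fold change of −0.48 (SE 0.10, adjusted p = 0.0159). The BRCA1-A complex gave a call in each direction. Babam1 was higher, with a log2 fold change of 0.32 (adjusted p = 0.0475), and Uimc1, which encodes its ubiquitin reader RAP80, was lower at −0.58 (adjusted p = 0.0435). Uimc1 and Rmi2, the partner of BLM at −0.72 (adjusted p = 0.0119), lie in the dimmest 25% of genes, and neither was called after quantile normalization (adjusted p = 0.197 and 0.252). When each mouse was left out in turn, Rmi2 kept its call in all 8 fits, Paxip1 and Polq in 7 each, Swsap1 in 5, Rad21 in 3 and Uimc1 and Rpa2 in 1 each. Babam1 (adjusted p 0.0584 to 0.102) and Rtel1 (0.0503 to 0.0945) were called in none of these fits.

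Markers of other cells of the ventricle moved in part with the groups. The summed intensity of 10 endothelial markers was 183124 to 201790 in control and 155540 to 176420 in Hira CKO mice. Of the 10, 9 were negative and 0 were called, where 67.8% of all genes were negative. The summed intensity of 7 cardiomyocyte markers was 1630455 to 1722279 in control and 1733932 to 1887247 in Hira CKO mice, with 0 called. That gap rested on Tnni3 in control_6497 (83785.8, against 241275.1 to 306751.0 in the other controls) and Atp2a2 in control_6675 (139282.7, against 242399.5 to 301428.8), and without these 2 genes, left out after their values were seen, the sums of the other 5 overlapped (1146780 to 1268806 and 1171506 to 1270159). Ttn was the only cardiomyocyte marker whose groups did not overlap, and its log2 fold change was −0.18 (adjusted p = 0.135).

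Cycling cell markers are of interest because recombination genes are most active in S and G2 phase. Of the 16 measured 15 had a negative log2 fold change (median −0.20) and 0 were called, where 67.8% of all genes were negative (median −0.14). After quantile normalization 13 of the 16 were negative (median −0.13). The sums of the 16 markers, of which Mki67 made up the greater part, overlapped. So did those of the other 15 markers (10668 to 11776 in control and 8630 to 10932 in Hira CKO mice). Of the smooth muscle and pericyte markers 7 of 7 were negative (median −0.38, and −0.24 after quantile normalization) with 0 called. Their sums were 73929 to 89881 in control and 59842 to 76195 in Hira CKO mice. Cd68, a macrophage marker, was the only gene called in any of these lists. Its intensity was 1414.7, 1463.4, 1928.8 and 1894.3 in control and 2088.9, 3044.2, 3107.7 and 2653.5 in Hira CKO mice, without overlap, with a log2 fold change of 0.70 (adjusted p = 0.0272, and 0.0171 after quantile normalization). When each mouse was left out in turn, Cd68 kept its call in 3 of 8 fits (adjusted p 0.00789 to 0.0699). The other 8 macrophage markers had negative values, and the sums of macrophage, fibroblast, lymphocyte and erythroid markers overlapped between the groups. No marker was at the floor of 1 in any mouse. The part of these cells in the values of the break repair genes was not tested.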

How the data were processed

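Gene expression was measured in 8 mice on 24 single-colour MouseOne Array Plus arrays. The authors deposited linear intensity values after median scaling and, as values below 0 show, background subtraction. The subtraction method and the image software are not given in the sources used here. Values under 1 were raised to 1 before log2, and the 3 arrays of a mouse, technical repeats, were averaged. Of 26423 probes 20377 had 1 symbol and 6046 had none. Symbols were updated through the RefSeq gene table of GRCm38, and the probe with the highest mean stood for a gene. Rad9a, H2afx, Rad51b and Rad51d were matched through older symbols.

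Groups were compared with limma 3.58.1 (lmFit and eBayes) in R 4.3.3, with Benjamini-Hochberg adjustment over 17742 genes. On simulated data for this comparison over 17742 genes, the fit recovered 74% of 100 genes changed 2-fold and 91% of 100 changed 4-fold, with 4 false calls, and smaller changes, such as those reported here, were not tried. Python 3.11.15, pandas 2.3.3 and matplotlib 3.10.9 were used for tables and plots. The number of mice limits the precision, and the labels give no sex.

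Named by rule were every called gene among the 58, the 2 with the smallest p in each role group, and up to 4 called genes with the smallest p of each list of other pathway genes. Further genes, among them Chek1, Rad1, Bard1, Fancb, Fanci and Rpa2, were chosen after their values were seen. The genes and lists were chosen with earlier results of these data known. Other settings tried were normalization by quantiles or cyclic loess, adding an offset of 50, dropping the dimmest 25% of genes, averaging or testing all probes, limma's intensity trend and robust prior, the methods' t-test, blocks for the mouse (random), the array number or neighbouring mouse numbers, leaving out single mice or array numbers, and thresholds of 0.01 and 0.10. The methods' t-test, Student's, was run on the values of the mice. Its calls used a Benjamini-Hochberg adjusted p under 0.05, not the methods' own thresholds. Leaving out the 2 arrays with most values below 0 was added after seeing the data. Protein sequences and probe sequences were not used here.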

Additional observations from a re-analysis of the deposited data

Results flagged for a closer look

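In 6 of the 130 groups of 4 mice looked at (65 genes, the 56 measured and the 9 called genes of the other pathway lists), 1 mouse stood apart from the other 3 by Dixon's ratio, the gap to the nearest mouse divided by the range of the group on the log2 scale, which passed its 95% critical value for 4 mice. Chance gives such a mouse in about 1 of 20 groups. Topbp1 in mouse control_6675 had an intensity of 4214.6 against 3999.6 to 4020.7 in the other control mice (ratio 0.899). Fancb in mouse CKO_6300 had 553.5 against 747.0 to 764.0 (ratio 0.93). The other 4 were all in mouse CKO_6499: Mdc1 with 2233.4 against 2826.0 to 2920.0 (ratio 0.878), Xrcc5 with 2983.2 against 3262.5 to 3322.3 (ratio 0.831), Dclre1c with 445.8 against 397.2 to 403.0 (ratio 0.873), and Paxip1 with 121.7 against 146.4 to 149.2 (ratio 0.909). Of these genes only Paxip1 was called, and its other 3 Hira CKO mice also lay below every control mouse.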

How the results depend on the processing

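The median log2 fold change of the 56 genes stayed negative under every alternative (−0.118 to −0.028), while the counts of calls moved. The 4 lower genes became 2 under quantile and 2 under cyclic loess normalization, 1 by the methods' t-test, 10 with the mouse as a random block, 2 without the 2 arrays with most values below 0, 0 at a threshold of 0.01 and 10 at 0.10. The 2 higher genes became 1 with the mean of all probes, 1 by the methods' t-test, 1 with neighbouring mouse numbers as a block and 0 at 0.01. Leaving out a mouse or an array number gave 1 to 7 lower and 0 to 2 higher. Of the other pathway genes, the 8 lower became 5 under cyclic loess, 5 by the methods' t-test, 18 with the random block, 5 without the 2 arrays, 0 at 0.01 and 17 at 0.10, and 1 to 8 with a mouse or array number left out. The 1 higher became 4 under quantile and 3 under cyclic loess normalization, 3 with the offset, 2 without the dimmest 25%, 0 when every probe was tested, 2 with the intensity trend, 2 by the methods' t-test, 3 with the random block, 0 with neighbouring mouse numbers, 0 without the 2 arrays, 0 at 0.01, 3 at 0.10 and 0 to 1 with a mouse or array number left out. Brca1 turned to 0.034 under cyclic loess and Chek1 to 0.111 under quantile normalization. The cause of these moves was not tested. Called genes kept their call in 24 (Trp53bp1), 19 (Recql4), 14 (Nhej1), 12 (Brca2), 12 (Fancc) and 10 (Nbn) of 25 alternatives. Of the 33 genes of the 56 that were neither named by the rule nor among Chek1, Rad1, Bard1, Fancb and Fanci, 16 changed sign under at least 1 alternative, with an absolute log2 fold change of at most 0.25.

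With array number as a replicate block there were 9 lower and 3 higher of the 56 genes and 18 lower and 3 higher of the other pathway genes. That fit kept the mouse as a random block over the 24 arrays and added the array number as a term. Deviations of arrays with the same number correlated at −0.693, 0.144 and −0.687 between the groups, and neighbouring mouse numbers at −0.021, 0.252, 0.038 and 0.236. The negative values of −0.693 and −0.687 belong to array numbers 1 and 3. Most values below 0 were held by array 1 of control_6299 (982) and array 3 of CKO_6672 (2429). With 3 arrays per mouse and these among them, the correlations cannot show whether equal array numbers mark a shared slide or day. The labels do not say.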
